A study of Mus musculus with 6 samples.

Results

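The 10 genes described here encode coat proteins of lipid droplets and the proteins that fill and empty them, and they are 10 of the 17684 genes listed by the deposited gene table. They were chosen by symbol, for their place in droplet biology, at a time when the Db and Db + Ato10 read counts of these same 6 libraries were already known. Differences between the groups are therefore a description of the members, with no test. The question was whether Plin2 differed together with the other droplet and lipase genes or alone. All 10 symbols were found. The symbol Plin2 stood for 2 gene numbers in the table, and the row of the named gene was used; the other row held almost no counts.

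The libraries were made from kidney RNA, 3 of the Db group and 3 of the Db + Ato10 group. All were db/db mice, which lack a working leptin receptor and become obese and diabetic, of the strain labelled C57 BLKS/L, which the study's methods name C57BLKS/J, and aged 50 weeks. The Db + Ato10 mice had been given atorvastatin, an inhibitor of cholesterol synthesis, at 10 mg/kg a day for 40 weeks, and the Db mice normal saline for the same time. The study's methods name oral gavage and male animals only, and mice of both groups died during the long experiment. Few of those given statins lived to its end, so both groups are made of survivors, the Db + Ato10 group the more so.

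Cells store triglyceride and sterol esters in lipid droplets, whose surface is coated by perilipins. The coat limits the access of lipases, and Plin2 protein is degraded when it is not bound to a droplet. In the kidney, droplets are found mainly in proximal tubule cells, which burn fatty acids, and in macrophages that have taken up lipid.

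Levels are given as CPM, counts scaled to a common TMM-normalized library size. Library totals were 13134931, 11381681 and 12426043 counts in Db replicates 1 to 3 and 14578004, 14667894 and 13133227 in Db + Ato10 replicates 1 to 3. At these depths 3 counts corresponded to 0.198 to 0.260 CPM, a limit that covers counting error only. Some libraries stood apart. Db replicate 1 had 2 counts in all over 4 Y-linked genes, where the other libraries had 1419 to 2116, although only males were enrolled. Db + Ato10 replicate 1 was far from the rest, with Spearman correlations across genes of 0.834 to 0.922 with the other libraries. Db + Ato10 replicate 3 was close to the Db libraries, with correlations of 0.978 to 0.985, and less close to Db + Ato10 replicates 1 and 2, at 0.869 and 0.957. Kidney markers were present in every library, with Slc34a1 of the proximal tubule between 354 and 4266 CPM and Umod of the thick ascending limb between 1234 and 4311 CPM.

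Plin2 was higher in all 3 Db + Ato10 libraries, and no other member had its pattern. Plin4 and Cidec were also higher without overlap between the groups, by less for Plin4 and from very few counts for Cidec, and neither ranked the treated libraries in the order that Plin2 did. Hilpda and Dgat1 did rank these libraries in that order, but overlapped between the groups and were high mainly in Db + Ato10 replicate 1. Plin5 overlapped as well, with 2 treated libraries above all controls and a log2 fold change of 0.71, against 0.63 for Plin4. The lipases Pnpla2 and Lipe, the coat protein Plin3 and the synthesis enzyme Dgat2 overlapped between the groups. Over all genes too, Db + Ato10 replicate 1 was least and replicate 3 most like the Db libraries. A shared order of these libraries therefore does not by itself mark likeness to Plin2, and the share of genes having it was not counted. In bulk RNA, more cells of a type that carries a transcript and more of that transcript per cell cannot be told apart.

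**Figure D1:**
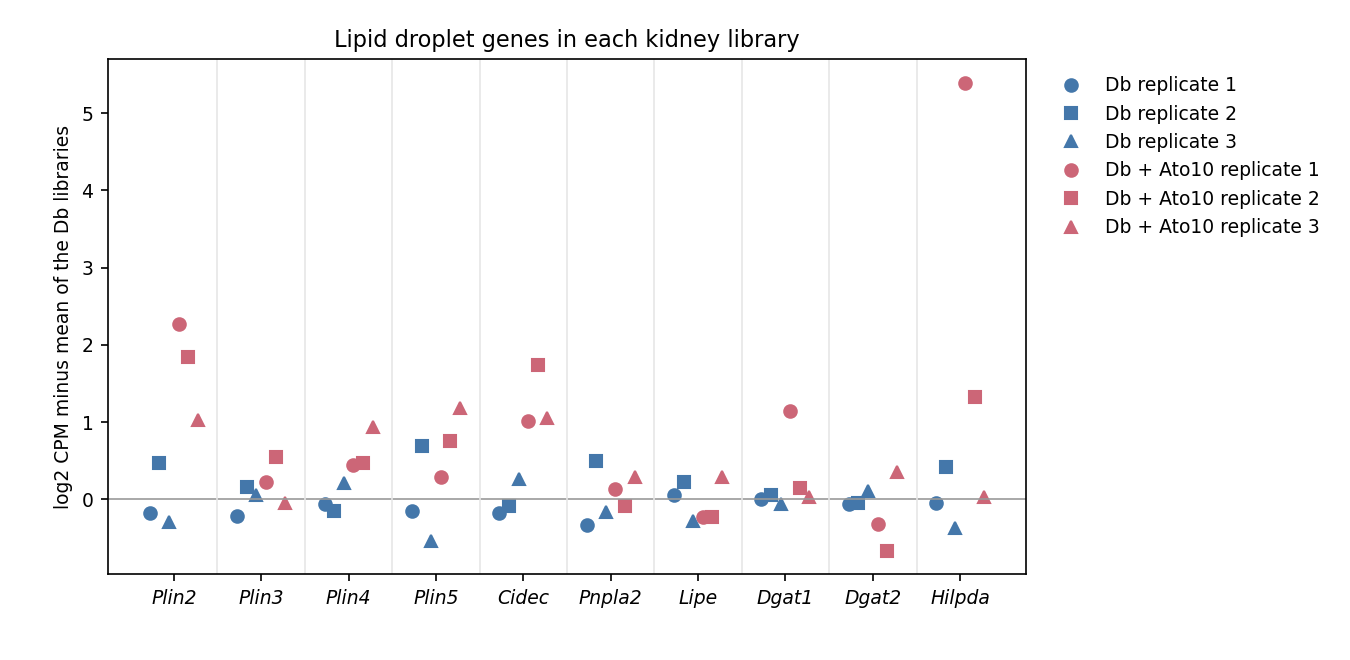
Log2 CPM of the 10 members in each of the 6 libraries, minus the mean of the 3 Db libraries; points are single libraries, blue for Db and red for Db + Ato10, and marker shapes give replicate numbers. All 3 Db + Ato10 points lie above all 3 Db points for Plin2, Plin4 and Cidec, while the high point of Hilpda, at 5.39, is Db + Ato10 replicate 1.

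Plin2, the perilipin found on droplets of most tissues outside fat, was at 102, 159 and 93.9 CPM in Db replicates 1 to 3 and at 557, 415 and 235 CPM in Db + Ato10 replicates 1 to 3. The lowest treated library lay above the highest control library, and the treated libraries were spread more widely than the controls. The log2 fold change was 1.77 ± 0.37 (SE, n = 3 per group), or 3.40-fold. Leaving out Db + Ato10 replicate 1 gave 1.47, leaving out Db + Ato10 replicate 3 gave 2.04, and leaving out Db replicate 1 gave 1.68.

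Plin3, a coat protein that moves from the cytosol to newly formed droplets, was at 55.2, 71.4 and 66.6 CPM in the Db libraries and at 74.5, 93.7 and 61.8 CPM in the Db + Ato10 libraries. The groups overlapped, since Db + Ato10 replicate 3 lay below 2 of the Db libraries. Its log2 fold change was 0.25 ± 0.19, and it ranged from 0.10 without Db + Ato10 replicate 2 to 0.39 without Db + Ato10 replicate 3. Plin4, best known from fat and muscle, was at 14.6, 13.7 and 17.6 CPM in the Db libraries and at 20.8, 21.2 and 29.4 CPM in the Db + Ato10 libraries. These groups did not overlap, and the highest library was Db + Ato10 replicate 3, where Plin2 was lowest among the treated. For Plin4 the log2 fold change was 0.63 ± 0.20. In the RefSeq table of assembly GRCm38.p6 Plin4 overlaps Hdgfl2, which was at 26.1 to 32.0 CPM, and reads from the shared stretch are uncertain because no source used here states that counting used the strand. Plin5, the perilipin of tissues that burn fat, is the neighbour of Plin4 on chromosome 17. It was at 4.93, 8.93 and 3.72 CPM in the Db libraries and at 6.72, 9.39 and 12.6 CPM in the Db + Ato10 libraries. The groups overlapped through Db replicate 2, and Plin5 ranked the treated libraries as Plin4 did, opposite to Plin2. Its log2 fold change was 0.71 ± 0.40. Leaving out Db replicate 2 gave 1.15, and leaving out either Db replicate 3 or Db + Ato10 replicate 3 gave 0.47.

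Cidec, which enlarges droplets by passing lipid between them, had 4, 4 and 6 counts in the Db libraries and 14, 24 and 12 counts in the Db + Ato10 libraries. In CPM these were 0.318, 0.347 and 0.485 against 0.922, 1.62 and 0.945. The groups did not overlap, but Cidec passed the filter of at least 10 counts in at least 3 libraries only through the group in which it was high. Its log2 fold change was 1.58 ± 0.44. It could not be fitted under that filter when any Db + Ato10 library was left out. The other 9 members passed the filter in both groups.

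Pnpla2 encodes adipose triglyceride lipase, which takes the first fatty acid from triglyceride. It was at 149, 264 and 166 CPM in the Db libraries and at 205, 176 and 229 CPM in the Db + Ato10 libraries. Db replicate 2 was the highest of all 6 libraries and the other Db libraries the lowest, so the treated libraries lay inside the control range. For Pnpla2 the log2 fold change was 0.08 ± 0.25 and changed sign without Db replicate 1, Db replicate 3 or Db + Ato10 replicate 3. Lipe encodes hormone-sensitive lipase, which acts on diacylglycerol and sterol esters. It was at 31.7, 35.6 and 25.0 CPM in the Db libraries and at 25.9, 26.0 and 37.3 CPM in the Db + Ato10 libraries. The groups overlapped, and the highest and lowest values were each a single library of a different group. Lipe had a log2 fold change of -0.05 ± 0.21, which changed sign without Db replicate 2, Db + Ato10 replicate 1 or Db + Ato10 replicate 2.

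Hilpda encodes a small droplet protein that inhibits adipose triglyceride lipase and is known for its response to low oxygen. It had 27, 35 and 21 counts in the Db libraries and 1519, 86 and 29 counts in the Db + Ato10 libraries, which in CPM was 1.70 to 3.03 in the controls and 5.81 and 2.28 in Db + Ato10 replicates 2 and 3. One library held nearly all of the signal, and Db + Ato10 replicate 3 lay within the control range. Hilpda had a log2 fold change of 3.97 ± 1.43 with all libraries and 0.84 without Db + Ato10 replicate 1. It was 2.06 to 2.40 with limma-voom, with limma on log2 FPKM or TPM and with the replicate number as a block.

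Dgat1 and Dgat2 encode the enzymes of the last step of triglyceride synthesis, and they are unrelated in sequence. Dgat1 was at 31.2, 32.2 and 29.6 CPM in the Db libraries and at 68.4, 34.2 and 31.7 CPM in the Db + Ato10 libraries. Apart from Db + Ato10 replicate 1, the libraries lay within a narrow range. Dgat1 had a log2 fold change of 0.53 ± 0.31, which was 0.10 without Db + Ato10 replicate 1. Dgat2 was at 173, 173 and 193 CPM in the Db libraries and at 143, 113 and 229 CPM in the Db + Ato10 libraries. Db + Ato10 replicates 1 and 2 lay below every Db library and Db + Ato10 replicate 3 above every one. Its log2 fold change was -0.15 ± 0.27. Leaving out Db + Ato10 replicate 2 gave 0.07, and leaving out Db + Ato10 replicate 3 gave -0.48.

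The study's criteria for a differentially expressed gene, a fold change over 1.5 and an adjusted p-value under 0.05, were met by 0 of 10 members with edgeR's quasi-likelihood test, beside 0% of the 13679 genes tested. With DESeq2, 1 member (Plin2) met them as higher and 0 as lower, beside 5.55% and 1.21% of the 14839 genes with an adjusted p-value. With edgeR 4 members (Plin2, Plin4, Cidec and Hilpda) were higher at an unadjusted p-value under 0.05 and 0 were lower, beside 11.2% and 5.71% of all genes tested, 2314 genes in both directions together. In 3 members the groups did not overlap with the Db + Ato10 group higher, and in 0 with it lower, beside 12.0% and 11.3% of all genes tested. Cidec could enter these counts only by being high in the Db + Ato10 group. Without it they are 3 of 9 members under the p-value and 2 of 9 without overlap. Only Plin2 was among the members under that p-value in every alternative. Hilpda was not under it with DESeq2, limma-voom, limma on log2 FPKM or TPM, the replicate block, or without any 1 Db library or Db + Ato10 replicate 1. Plin4 was not under it without Db replicate 1, Db replicate 2 or Db + Ato10 replicate 3. Without Db + Ato10 replicate 3, Dgat1 was under it as higher and Dgat2 as lower, and without Db replicate 2 Plin5 was, as higher. Nothing is read from these counts, because the members were chosen with this contrast in view. The median log2 fold change was 0.58 over the 10 members, 0.53 without Plin2 and -0.01 over all genes tested.

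Levels of different genes were compared on the TPM scale, which accounts for transcript length. In the Db group Dgat2, Pnpla2 and Plin2 were highest, at 143 ± 9.16, 130 ± 42.0 and 116 ± 34.8 TPM (mean ± SD, n = 3), and their ranges overlapped. Plin3 at 53.8 ± 7.01, Dgat1 at 33.4 ± 1.34 and Lipe at 18.7 ± 3.37 TPM followed, each below the range of the one before. Plin5, Hilpda and Plin4 came next, at 5.49 ± 2.62, 4.62 ± 1.37 and 4.30 ± 0.462 TPM, with ranges that overlapped, and Cidec was last at 0.393 ± 0.0839 TPM. In the Db + Ato10 group Plin2 stood first, at 370 ± 142 TPM. Pnpla2 and Dgat2 were at 129 ± 14.4 and 121 ± 44.5 TPM there; the Dgat2 mean covers libraries on both sides of the control range.

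Among the perilipin transcripts, Plin2 took a larger share in the treated libraries. It held 64.4%, 68.3% and 59.1% of the TPM of all perilipins in the Db libraries and 88.0%, 81.3% and 76.1% in the Db + Ato10 libraries, without overlap. Plin1, the perilipin of adipocytes, added almost nothing, with 0 counts in 5 libraries and 1 count in Db replicate 3. The ratio of Plin2 to Pnpla2, a coat protein to the main lipase, was 0.986, 0.873 and 0.825 on the TPM scale in the Db libraries and 3.99, 3.41 and 1.48 in the Db + Ato10 libraries. All treated libraries were above all controls, with Db + Ato10 replicate 3 nearest to them. The 9 members without Plin2 summed to 350, 452 and 381 TPM in the Db libraries and to 558, 368 and 444 TPM in the Db + Ato10 libraries, which overlapped.

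Set against each other member within a library, the log2 ratio of Plin2 was higher in every Db + Ato10 library than in any Db library for Plin3, Pnpla2, Lipe, Dgat1 and Dgat2. The mean change of this log2 ratio was 1.48 against Plin3, 1.60 against Pnpla2, 1.77 against Lipe, 1.28 against Dgat1 and 1.93 against Dgat2. Against Plin4, Plin5, Cidec and Hilpda the groups overlapped. In Db + Ato10 replicate 3 the log2 ratio to Plin4 was 0.09 above its Db mean and the ratio to Plin5 was 0.15 below it (-0.15), so that in this library Plin2, Plin4 and Plin5 were above the Db mean by similar amounts, 1.03, 0.94 and 1.18 on the log2 scale. In Db + Ato10 replicate 1 the same differences were 2.27, 0.44 and 0.29, and in Db + Ato10 replicate 2 they were 1.85, 0.47 and 0.76. Plin2 thus lay further above the Db mean than Plin4 and Plin5 in replicates 1 and 2 and beside them in replicate 3.

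Transcript estimates divide reads between overlapping models and are less certain than gene totals. Of 30175 transcripts tested, 0 met the criteria with edgeR and 2471 had an unadjusted p-value under 0.05. DESeq2, run on the 54337 transcripts with at least 1 count, called 970. Plin2 had 2 transcripts. The curated NM_007408.3 was at 93.0, 138 and 72.6 TPM in the Db libraries and at 344, 346 and 200 TPM in the Db + Ato10 libraries. It carried most of the gene and did not overlap between the groups. The predicted XM_006537557.1 was at 5.80, 17.5 and 19.7 TPM in the Db libraries and at 148, 57.7 and 14.4 TPM in the Db + Ato10 libraries. Its share of Plin2 was 30.1% in Db + Ato10 replicate 1 and 6.68% in Db + Ato10 replicate 3, and the groups overlapped.

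Of the 4 transcripts of Dgat1, 2 held at least 10% of its mean TPM. The predicted XM_017316426.1 was at 8.84, 10.2 and 10.7 TPM in the Db libraries and at 50.3, 18.4 and 12.6 TPM in the Db + Ato10 libraries. The curated NM_010046.2 was at 19.6, 20.7 and 17.0 TPM in the Db libraries and at 15.3, 16.4 and 17.1 TPM in the Db + Ato10 libraries. The predicted transcript was therefore higher in every treated library and held 70.9% of Dgat1 in Db + Ato10 replicate 1, while the curated one overlapped between the groups. Dgat2 and Plin3 had 1 transcript each, and Hilpda (NM_023516.5), Pnpla2 (NM_001163689.1) and Cidec (XM_006505531.3) had 1 above 10%. Plin4, Plin5 and Lipe had 3, 2 and 3 at that share. NM_001077348.1 of Plin5 was at 0.83, 1.23 and 0.85 TPM in Db against 2.1, 4.25 and 1.83 TPM in Db + Ato10. NM_020568.3 of Plin4 was at 0.17, 2.94 and 1.03 TPM against 3.01, 3 and 3.39 TPM. Both were higher without overlap, and the other transcripts of Plin4, Plin5 and Lipe at that share overlapped.

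**Figure D2:**
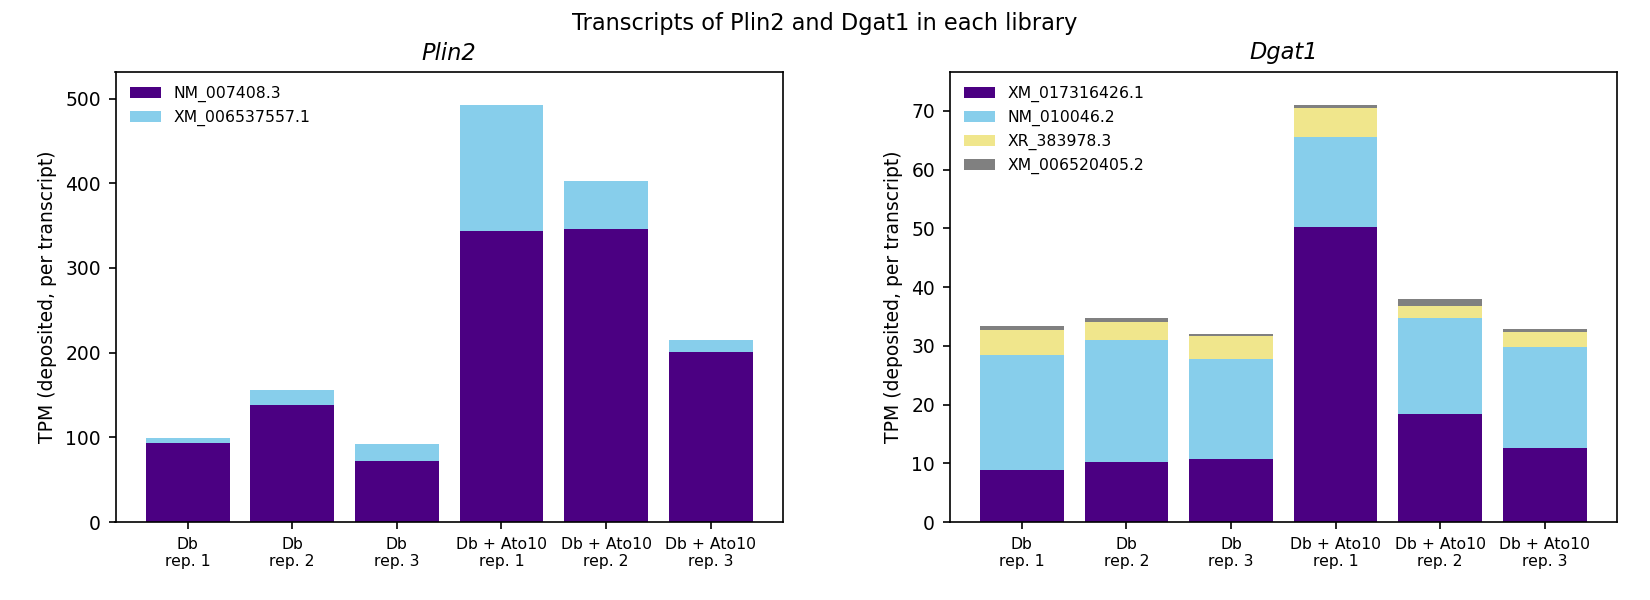
Deposited TPM of each transcript of Plin2 (left) and Dgat1 (right), stacked per library; bars are single libraries and their height is the gene's total. The excess of Dgat1 in Db + Ato10 replicate 1 lies in XM_017316426.1, at 50.3 TPM, while both transcripts of Plin2 are high there.

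The genes most like Plin2 were sought among 10021 others with a mean of at least 10 CPM, by the root mean square difference of log2 CPM over the 6 libraries after centring each gene on its mean. The nearest 5 were Cldn4, Plekho1, Relb, Efemp2 and Plp2, at differences of 0.146 to 0.210. Cldn4 was at 18.2, 29.3 and 21.7 CPM in the Db libraries and at 126, 92.0 and 46.2 CPM in the Db + Ato10 libraries, nearly the profile of Plin2 at a lower level. With each profile also divided by its SD, the nearest were Btf3, Mmp7, Cuedc2, Hip1r and Akr1b8. Relb, Efemp2, Mmp7 and Akr1b8 had a mean under 10 CPM in the Db libraries and entered this search only through the Db + Ato10 group. None of these nearest genes is a member. With 5 places by each measure among 10021 genes, and 7 other members compared, that outcome was likely in advance. Nothing is read from it. Among the 7 other members with enough counts, the nearest by the first measure was Dgat1, at rank 963, followed by Plin3 at rank 1830 and Plin4 at rank 1913, while Hilpda was at rank 8853. By the second measure, which ignores the size of a difference, Hilpda was the nearest member, at rank 1510, but it reached the mean of 10 CPM only through Db + Ato10 replicate 1.

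Promoters are shown for Plin2 and Hilpda, the pair of members with the highest levels in Db + Ato10 replicate 1 relative to controls. RefSeq windows of assembly GRCm38.p6, from 250 bases before to 50 after a start, were found for 8 of 10 members, 12 windows in all, and none for Dgat1 and Dgat2. Motifs were searched on both strands. The E-box has the letters CACGTG. Hypoxia response elements have the core letters ACGTG, which lie inside the E-box, or in another form the letters GCGTG. Nuclear receptors bind sites with the letters AGGTCA. Of 32851 promoters, the E-box was in 7.15%, the first hypoxia core in 19.6%, the second in 32.4% and the receptor site in 16.3%. A direct repeat of the receptor site with 1 base between the copies, as PPAR elements have, was in 0.0396% of promoters and in none of the 12 windows. Only these exact letters within 300 bases were searched, so elements with other letters or further away would be missed. Nothing is read from their absence. The Plin2 window held 1 E-box, with the first hypoxia core inside it on both strands, 1 copy of the second core on the reverse strand and 1 receptor site. A window of Lipe, whose groups overlapped, also held 1 E-box with the first core on both strands and 1 copy of the second core. The Hilpda window shown, 1 of 2 for that gene, held the first core once and the second at 2 places, with no E-box. The other Hilpda window, which overlaps it, held only 1 copy of the second core. Both windows of Cidec and both of Plin5 also held the second core, and both of Plin5 a receptor site. The other Lipe window and those of Pnpla2, Plin4 and Plin3 held none of these letters. Matches describe these letters only. Capitals mark the E-box and both cores on either strand, at chr4:86670010-86670309 on the minus strand for Plin2 and chr6:29272376-29272675 on the plus strand for Hilpda.

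Plin2: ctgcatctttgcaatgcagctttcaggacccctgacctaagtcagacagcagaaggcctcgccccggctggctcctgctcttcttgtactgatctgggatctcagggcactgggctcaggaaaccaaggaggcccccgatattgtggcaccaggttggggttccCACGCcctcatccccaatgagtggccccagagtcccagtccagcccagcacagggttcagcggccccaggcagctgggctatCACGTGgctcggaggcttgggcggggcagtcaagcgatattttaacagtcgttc

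Hilpda: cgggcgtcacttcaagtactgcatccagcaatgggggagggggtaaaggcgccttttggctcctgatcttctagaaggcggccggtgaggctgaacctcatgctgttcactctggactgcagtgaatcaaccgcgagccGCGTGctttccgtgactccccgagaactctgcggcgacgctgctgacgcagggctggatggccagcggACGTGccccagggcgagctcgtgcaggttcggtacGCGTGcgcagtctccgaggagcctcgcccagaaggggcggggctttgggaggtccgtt

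Beyond the members, 43 genes of the droplet were listed by function, and 38 of them passed the filter. At an unadjusted p-value under 0.05 with edgeR, 1 was higher and 3 were lower in the Db + Ato10 group, beside 11.2% and 5.71% of all genes tested; 0 met the study's criteria with edgeR and 1 did with DESeq2. Leaving out Db replicate 1 gave 2 genes in place of these 4, leaving out Db + Ato10 replicate 3 gave 11, and limma on log2 FPKM or TPM gave 7. Their median log2 fold change was -0.16, against -0.01 for all genes. The smallest edgeR adjusted p-value of any gene was 0.239.

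The 1 higher gene was Soat1, which makes cholesteryl esters, at 15.6, 13.4 and 13.5 CPM in the Db libraries and 48.7, 29.4 and 17.0 CPM in the Db + Ato10 libraries. It ranked the treated libraries as Plin2 did, which was also their order of distance from the Db libraries over all genes. Its log2 fold change was 1.16 ± 0.37. Lipa, the lysosomal acid lipase that splits those esters, was at 421, 315 and 383 CPM in the Db libraries and at 154, 229 and 304 CPM in the Db + Ato10 libraries, with a log2 fold change of -0.70 ± 0.28. Neither gene overlapped between the groups, and in both Db + Ato10 replicate 3 was nearest to the controls. The other lower genes were Acsl3, which activates fatty acids at forming droplets, with a log2 fold change of -0.76 ± 0.17 and no overlap, and Gpam, the first enzyme of glycerolipid synthesis, with -0.76 ± 0.31 and overlap. Among 9 tested genes of droplet structure and 10 of lipolysis, 0 passed in either direction. The most abundant of these by TPM were Cideb, at -0.29 ± 0.45, and Ces1d, at -1.46 ± 0.85. Acsl1 was the most abundant of the triglyceride synthesis genes by mean TPM over the 6 libraries, at -0.88 ± 0.39. Within the Db + Ato10 group the mean of Agpat3 exceeded that of Acsl1, at 157 TPM against 131 TPM. Agpat3 itself was lower in every Db + Ato10 library than in any Db library, with a log2 fold change of -0.35 ± 0.20. The 10 tested lipolysis genes had a median of -0.27.

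Plin2 and Hilpda are known targets of PPAR receptors and of hypoxia, so lists of both kinds of target were read beside them. Of 12 tested PPAR-responsive genes, 0 passed an unadjusted p-value of 0.05, and their median log2 fold change was -0.03. In 1 of them the groups did not overlap with Db + Ato10 higher and in 0 lower, beside 12.0% and 11.3% of all genes. That gene, Angptl4, was named after its values were seen. It was at 188, 214 and 30.0 CPM in the Db libraries and 218, 254 and 256 CPM in the Db + Ato10 libraries. Its log2 fold change was 0.75 ± 0.64. The most abundant gene of the list by TPM, Cyp4a10, was at 1036, 1869 and 987 CPM in the Db libraries and at 782, 1549 and 1687 CPM in the Db + Ato10 libraries. Set against the mean of the controls, the genes of this list had a median of -0.08, 0.62 and -0.64 in the Db libraries and -0.59, 0.28 and 0.32 in the Db + Ato10 libraries. That median was high in Db replicate 2, where most members, Plin2 among them, were also highest among the controls, and low in Db + Ato10 replicate 1, where Plin2 was highest of all. Of 17 hypoxia-responsive genes, 0 were higher and 1, Pdk1, was lower at that p-value, beside 11.2% and 5.71% of all genes tested. Pdk1 had a log2 fold change of -0.76 ± 0.22. Ndrg1 was the most abundant, with -0.45 ± 0.51. The median of that list was 0.41, -0.11 and -0.11 in Db + Ato10 replicates 1 to 3. In Db + Ato10 replicate 1, 9 of the 17 genes lay above all controls and 3 below them. Over all 13679 genes tested, 5275 lay above and 5591 below all controls in that library. In Db + Ato10 replicate 2, 1 gene of the list lay above and 5 below, beside 4799 and 4680 of all genes. In Db + Ato10 replicate 3, 1 lay above and 6 below, beside 3208 and 3281. Slc2a1, Egln3 and Ero1a, named after their values were seen, were at 280, 119 and 430 CPM in Db + Ato10 replicate 1 and at most at 103, 40.1 and 82.2 CPM in every other library, as Hilpda was high there. Ndrg1 at 1488 CPM, Car9 at 4.08 CPM and Pdk1 at 59.5 CPM were the 3 below all controls in that library; the lowest control levels were 3017, 12.9 and 89.5 CPM. Ankrd37, also named after its values were seen, was at 8.04, 4.39 and 1.10 CPM in Db + Ato10 replicates 1 to 3 and at 1.04 to 1.99 CPM in the Db libraries, which is the order of Plin2 and Hilpda among the treated libraries. The part of these genes in the Plin2 and Hilpda values was not tested.

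Markers of other cells differed between the same libraries. Their counts stand beside 11.2% of all genes tested higher and 5.71% lower at an unadjusted edgeR p-value under 0.05. No gene had an edgeR adjusted p-value under 0.239. All 8 tested macrophage markers were higher at an unadjusted p-value under 0.05, and the 9 listed summed to 118, 211 and 161 CPM in the Db libraries and to 4529, 1121 and 234 CPM in the Db + Ato10 libraries. Lyz2 was their most abundant gene, at 2663, 538 and 65.3 CPM in Db + Ato10 replicates 1 to 3. The order of the treated libraries was that of Plin2, and also that of their distance from the Db libraries over all genes. Of 7 tested markers of lipid-associated macrophages, 5 were higher and 1, Lpl, was lower, and the 8 listed summed to 422, 432 and 342 CPM against 1129, 490 and 329 CPM. By mean TPM over the 6 libraries Lgals3 was the most abundant of them. Within the Db group the means of Cd9 and Lpl exceeded that of Lgals3, at 153 and 101 TPM against 79.3 TPM. Gpnmb, at 0.159 to 1.04 CPM in the Db libraries, was at 56.7, 36.7 and 0.551 CPM in the Db + Ato10 libraries. In Db + Ato10 replicate 3, Lgals3 at 103 CPM and Msr1 at 1.97 CPM lay above all controls, and the other lipid-associated markers did not. So did 6 of the 8 tested macrophage markers lie above all controls there, beside 3208 of all 13679 genes tested. All 4 tested neutrophil markers were higher, though Retnlg passed the filter on counts only through the Db + Ato10 group, and the 5 listed, led by S100a9, summed to 5.25, 9.97 and 5.33 CPM against 9603, 102 and 11.3 CPM.

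All 5 tubular injury markers were higher at an unadjusted p-value under 0.05. For this and the lists below, 11.2% of all genes tested were higher and 5.71% lower. The injury markers summed to 13.0, 95.7 and 20.7 CPM in the Db libraries and to 5498, 1434 and 436 CPM in the Db + Ato10 libraries. Lcn2 was the most abundant and Havcr1, a marker of injured proximal tubule, was at 115, 274 and 87.9 CPM in the Db + Ato10 libraries. Within the Db group, the injury sum and Plin2 were both highest in replicate 2. The 10 proximal tubule markers, led by Slc34a1, summed to 13220, 9687 and 12920 CPM against 1770, 6250 and 12030 CPM, and 0 passed an unadjusted p-value of 0.05. Of 5 thick ascending limb markers 3 were lower (Slc12a1, Kcnj1 and Cldn10), and they summed to 6341, 7057 and 6806 CPM against 4324, 2097 and 5146 CPM. Of 5 podocyte markers, led by Podxl, 0 passed, with sums of 570, 371 and 367 CPM against 573, 197 and 373 CPM. Of 5 tested urothelial and squamous markers 4 were higher, led by Sprr1a, but Krt5 and Krt14 passed the filter on counts only through the Db + Ato10 group, which leaves 2 of 3. The 10 listed summed to 7.23, 5.81 and 5.49 CPM against 135, 83.0 and 34.1 CPM. The part of these markers in the Plin2 values was not tested.

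Adipoq, Plin1, Cfd, Retn and Adig, which define adipocytes, were at or near 0 in every library, at 0.329 CPM or less. The 7 adipocyte markers in the table summed to 97.7, 65.3 and 67.8 CPM in the Db libraries and to 164, 38.1 and 97.0 CPM in the Db + Ato10 libraries, most of it Fabp4, which endothelium and macrophages also express. Car3 was at 8.66, 2.25 and 5.25 CPM in the Db libraries and at 0.725, 1.69 and 14.3 CPM in the Db + Ato10 libraries.

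**Figure D3:**
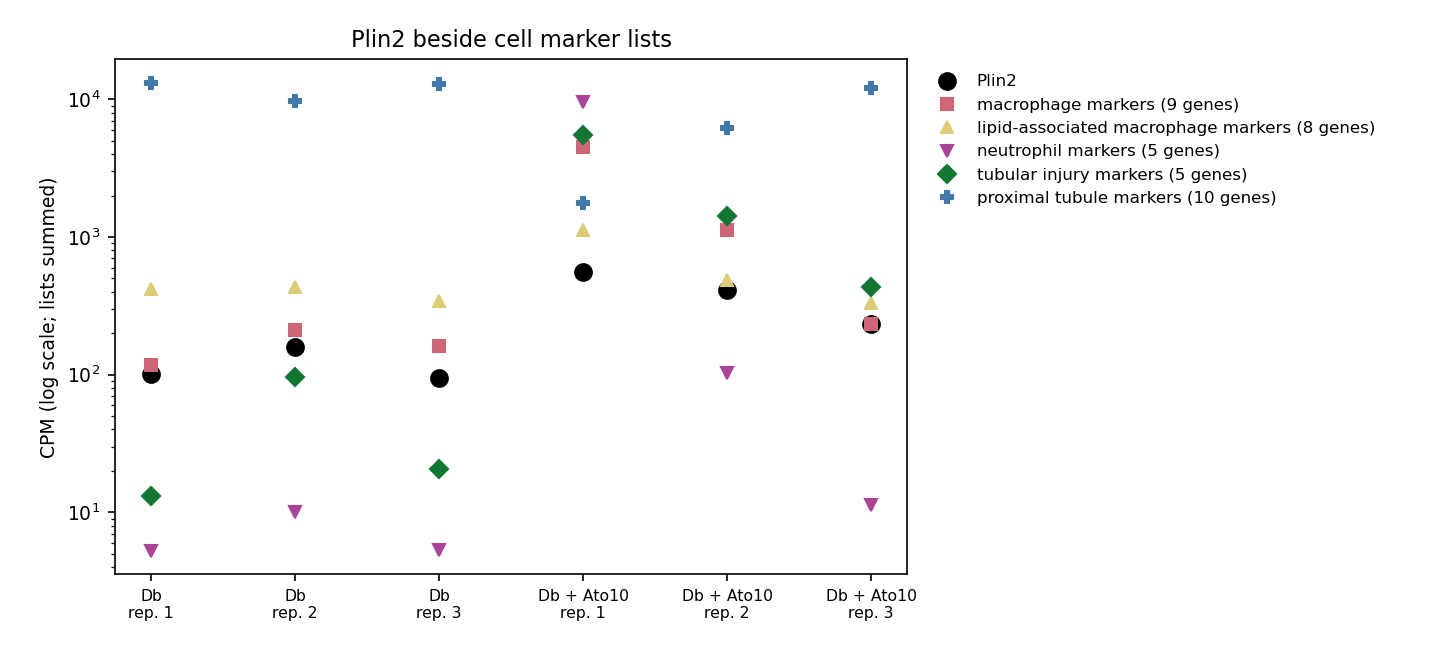
Plin2 in CPM (black circles) and the summed CPM of 5 marker lists in each library, on a log scale; every point is 1 library. Plin2, at 557, 415 and 235 CPM in Db + Ato10 replicates 1 to 3, and the macrophage, neutrophil and injury sums have the same order in those libraries, and the proximal tubule sum has the reverse order.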

How the data were processed

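Expected counts, the reads estimated for each gene or transcript without normalization, were deposited by the authors, and 91.3% of gene values were exactly whole. They also deposited FPKM and TPM, scaled to length and depth. The submitters' processing notes list HISAT, Bowtie2 2.2.5 and the build mm9, with no role given. Of 152 listed symbols, 150 were found in the table and used.

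Expected counts were rounded. Genes reaching 10 counts in 3 or more libraries entered edgeR 4.0.16 in R 4.3.3 (TMM, quasi-likelihood F test, Benjamini-Hochberg adjustment over all genes), with a prior count of 2 for log2 CPM. The SE is the size of the log2 fold change over the square root of F. DESeq2 1.42.0 and limma 3.58.1 served as alternatives. Members and lists were chosen with earlier results of these data known. Named genes were the members and the 5 genes nearest to Plin2 by each measure. Each list gave the gene of highest mean TPM over the 6 libraries and up to 4 of smallest unadjusted p-value under 0.05. Hdgfl2, Lpl, Cd9, Agpat3, Angptl4, Car3, Car9, Slc2a1, Egln3, Ero1a, Ankrd37 and the defining adipocyte markers were named outside that rule with values known. The fit was tested on simulated data. The labels number 3 samples per group without naming animals, so p-values measure the spread between these samples. One label field describes all 6 mice as treated with atorvastatin, and the groups follow the field that tells saline from atorvastatin.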

Additional observations from a re-analysis of the deposited data

How the results depend on the processing

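The log2 fold change of Plin2 kept its sign under all 16 alternatives, from 1.47 to 2.04 with a library left out and from 1.63 to 1.79 otherwise. Those of Plin3, Plin4, Plin5, Cidec, Dgat1 and Hilpda also kept their sign. The sign changed for Pnpla2 and Lipe in 3 alternatives each and for Dgat2 in 1, all with a library left out.

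DESeq2 called 1004 genes, 970 transcripts and 1 member, and limma on log2(FPKM + 0.1) called 1 gene, where edgeR called 0. With each library left out in turn, edgeR called 0 to 1106 genes and 0 to 1 member, the highest values being those without Db + Ato10 replicate 3, and 2 to 4 members and 2 to 11 other droplet genes had an unadjusted p-value under 0.05. Limma on log2(FPKM + 1), log2(TPM + 1) and log2(FPKM + 0.1) gave 7 such droplet genes, against 4. The cause was not tested.

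Correlations of same-numbered deviations were -0.151, 0.0613 and 0.208. With 3 libraries per group they cannot settle whether replicate numbers pair the libraries. With the number as a replicate block, 0 genes met the criteria, 3 members and 3 other droplet genes had an unadjusted p-value under 0.05, and the log2 fold change of Plin2 was 1.71. Cidec could not be fitted with at least 10 counts in every library. Its log2 fold change was 0.46 on log2(FPKM + 1), a scale that understates low genes.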
